A study of Mus musculus with 2 samples.

Results

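The haemoglobin and erythroid genes described here are the alpha-globin genes Hba-a1 and Hba-a2, the adult beta-globin genes Hbb-b1 and Hbb-b2, the embryonic beta-like genes Hbb-bh1 and Hbb-y, the haem enzyme gene Alas2 and the anion exchanger gene Slc4a1. They were taken as every probe on the array whose gene name is one of these 8 symbols. This gave 10 probes on 37 spots, out of 56593 usable probes on 59305 spots under 37068 gene names. Total RNA of mouse olfactory bulb was measured on 2 Agilent one-colour arrays. The control mouse was kept under standard odor conditions and the other mouse under odor-enriched conditions. The labels name the tissue as neurons of the bulb, yet give no step that sorted cells. The sources used here do not give strain, age, sex, the length of the enrichment or whether blood was flushed from the vessels. With 1 array per group there is no spread between mice and no test. Each array was scaled to the 75th percentile of its probes. A difference is the scaled log2 signal of the odor-enriched array less that of the control, and describes these arrays only.

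Haemoglobin is built from alpha-type and beta-type globin chains, each of which holds a haem group. Erythroid cells make the chains and the haem together. ALAS2 catalyses the first step of haem synthesis in these cells, and SLC4A1 (band 3) exchanges chloride and bicarbonate across the red cell membrane and anchors its skeleton. Circulating red cells have no nucleus, but young ones, the reticulocytes, still carry globin mRNA. Brain tissue therefore holds globin transcripts from blood in its vessels, and adult globin transcripts have also been described in some neurons, including dopaminergic ones, and in glia. Mouse strains differ in their adult beta-globin genes. Some carry Hbb-b1 (major) and Hbb-b2 (minor), others, such as C57BL/6, carry Hbb-bs and Hbb-bt.

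The probe sequences are shown first because they limit what each gene name means. Of the 10 member probes, 5 list transcripts of more than 1 globin gene: all 3 alpha probes list both Hba-a1 and Hba-a2, the Hbb-b1 probe lists Hbb-b1 and Hbb-bs, and the Hbb-b2 probe lists Hbb-b2 and Hbb-b1. The Hbb-y, Alas2 and Slc4a1 probes and one Hbb-bh1 probe list their own gene alone, and the other Hbb-bh1 probe lists no RefSeq transcript. The 2 alpha probes near the end of the transcript are the same sequence moved by 1 base, with 59 of 60 bases in common. Their first 30 bases, with the shared bases in capitals, are:
Hba-a1, from base 499 of its transcript: cTTCTTCTCTCCCTTGCACCTGTACCTCTT
Hba-a2, from base 497 of its transcript: TTCTTCTCTCCCTTGCACCTGTACCTCTTg
Hba-a1 and Hba-a2 are therefore 1 measurement of alpha-globin mRNA here and not separate genes. The second Hba-a1 probe lies within the coding sequence, as do the Hbb-b2 and Hbb-y probes, which are shown whole because each is the only measurement of its part of the family:
Hba-a1, from base 161: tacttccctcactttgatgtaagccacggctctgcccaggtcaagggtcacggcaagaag
Hbb-b2, from base 215: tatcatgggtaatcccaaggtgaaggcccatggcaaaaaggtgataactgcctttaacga
Hbb-y, from base 379: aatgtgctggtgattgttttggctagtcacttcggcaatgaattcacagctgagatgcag
Apart from the alpha pair, no member probe shared a run of 20 bases with another probe on the array. The Hbb-b1 probe begins at base 5 of its transcript. Its first 46 bases were identical to RefSeq's Hbb-bs sequence from base 5 after the start of that gene (GRCm38). With the start of Hbb-bt, the longest run it shared was 12 bases, and 38 of 45 ungapped bases were identical (84.4%). Binding of Hbb-bt transcripts to this probe was not tested. In a mouse with Hbb-bs and Hbb-bt, this probe would match the Hbb-bs transcript.

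On the array's own genome build, mm9, the alpha probes lie on chromosome 11 at 32183955 to 32184014 and 32184427 to 32184486 (Hba-a1) and at 32197245 to 32197304 (Hba-a2), on the plus strand. The beta-type probes lie on the minus strand of chromosome 7, at 110976379 to 110976438 (Hbb-b1), 110990209 to 110990268 and 110990930 to 110990989 (Hbb-bh1) and 111000448 to 111000507 (Hbb-y). The files give the Hbb-b2 probe no position. The Alas2 probe is on chromosome X at 147004993 to 147005052 and the Slc4a1 probe on chromosome 11 at 102210256 to 102210315. No annotation of mm9 was used, so exons are not given.

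Adult globin probes were brighter on the odor-enriched array, by about 2-fold for the alpha chains and by 1.71-fold to 2.64-fold for the beta chains. In bulk tissue, more cells of a type and more RNA per cell cannot be told apart. Of the 6 members well above background on both arrays, 3 (Hba-a1, Hba-a2 and Hbb-b1) lay 2-fold or more above the control, where 11.5% of all 23872 such genes did. None of the 6 lay 2-fold or more below it, where 5.52% of all genes did. At 1.5-fold, 5 of 6 were higher (21.2% of all genes) and 0 lower (16.3%), and at 3-fold 0 were higher (5.39%) and 0 lower (1.38%). The members' median difference was 1.02, against 0.00 for all genes. All 6 differences were above 0, as were 50.1% of all genes. Hba-a1 and Hba-a2 enter these counts as separate genes although they are 1 measurement, and the members were chosen with these results known.

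Alpha-globin was the best measured of the family, since each of its 3 probes is printed on 10 spots. The coding Hba-a1 probe had a processed signal of 132145 ± 2737 on the control array and 214294 ± 5210 on the odor-enriched array (SD over 9 spots on each array, after 1 outlier-flagged spot was left out on each). The Hba-a1 probe near the transcript's end gave 124796 ± 3000 and 219246 ± 6395, and the Hba-a2 probe 120786 ± 2459 and 219093 ± 5637 (SD over 10 spots each). Over the usable spots of the 3 probes, the control signals ran from 117551 to 138164 and the odor-enriched signals from 208840 to 235182. These are unscaled signals of repeat spots on 1 array per group. After scaling, the differences of these probes were 1.01, 1.12 and 1.17, with SDs of 0.02, 0.02 and 0.03 between spots. The gene means were 1.07 for Hba-a1 (2.09-fold) and 1.17 for Hba-a2 (2.25-fold). The spot SDs cover printing and scanning only. Surrounding spots gave no such difference: the median over the neighbouring 9 by 5 spots was 0.20 for the coding probe, 0.08 for the other Hba-a1 probe and 0.11 for the Hba-a2 probe.

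The beta-globin probes stood on 1 spot each and differed among themselves. Hbb-b1, measured at the start of its transcript, went from a signal of 10876 to 23165, a difference of 1.40 (2.64-fold). Hbb-b2, measured within its coding sequence, went from 61071 to 84144, a difference of 0.77 (1.71-fold). Hbb-bt, which is not among the 8 symbols and has its probe near the transcript's end, went from 83849 to 144616, a difference of 1.10. The spots around the Hbb-bt spot had a median difference of 0.76, against 0.07 around each of Hbb-b1 and Hbb-b2, and the part of that area in the Hbb-bt value was not tested. Different probes of 1 gene differed by a pooled SD of 0.63 on these arrays (8234 genes), about as far apart as the highest and lowest of these beta values.

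**Figure D1:**
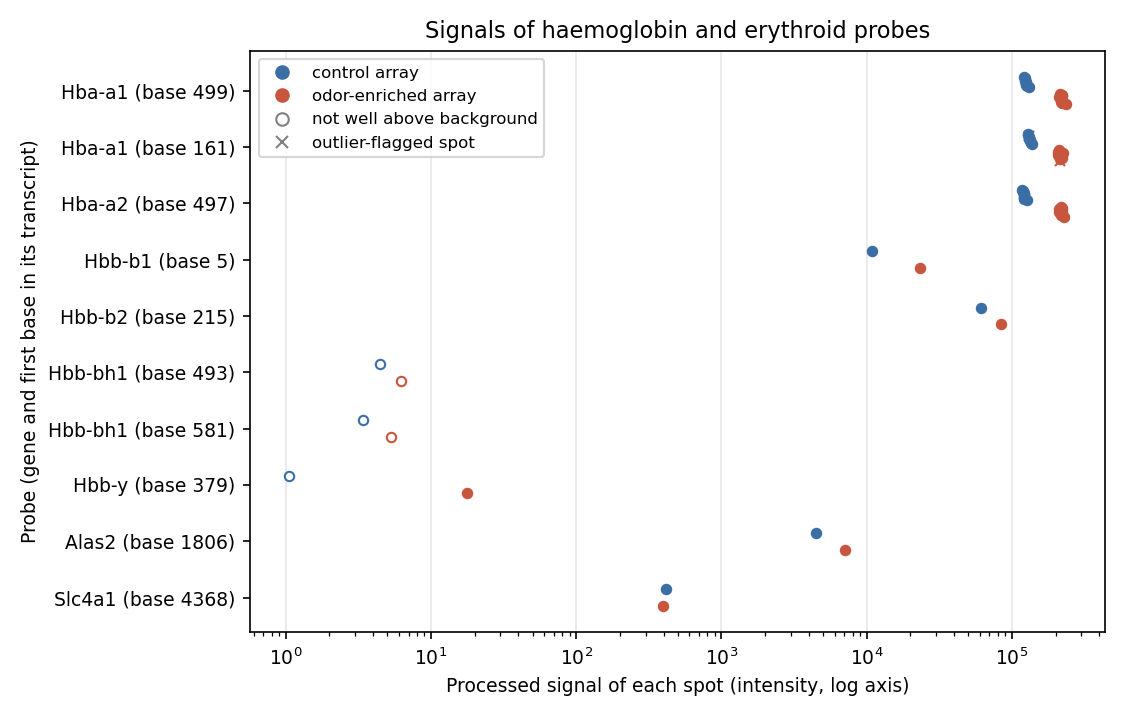
Processed signal (intensity, log axis) of each spot of the 10 member probes on the control array (blue) and the odor-enriched array (red), with open circles for spots not well above background and crosses for outlier-flagged spots. The usable alpha-globin spots, which are repeat spots with unscaled signals, run from 117551 to 138164 (control) and from 208840 to 235182 (odor-enriched). Both Hbb-bh1 probes lie at background and the Slc4a1 signals are 417 and 396.

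Embryonic globins were at or near background. Hbb-bh1, a chain of primitive red cells in the embryo, was not well above background on either array with either probe, with control signals of 4.45 and 3.39 against 6.20 and 5.27 after enrichment. Hbb-y, the embryonic epsilon-type chain, was not well above background in the control (signal 1.05) and was so in the odor-enriched sample (17.7). With the lowest well-above-background signal of the control array as the floor, the Hbb-y level after odor enrichment was at least 4.53-fold higher. That rests on 1 dim spot, whose mean pixel brightness was 43.4 over a local background of 19, with 32.0% variation between its pixels. Of all gene names, 1.21% were well above background on the odor-enriched array only and 7.29% on the control array only. The embryonic alpha-type Hba-x and the beta-like Hbb-bh2 were well above background on neither array.

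Alas2 was close to the adult globins and Slc4a1 was not. The Alas2 signal was 4459 on the control array and 7067 on the other, a difference of 0.98 (1.97-fold), and 11.9% of all genes had a difference at least as high. The Slc4a1 signal was 417 and 396, lower on the odor-enriched array before scaling, and its difference after scaling was 0.24 (1.18-fold), reached by 35.6% of all genes. For comparison, 10.5% of genes reached the difference of Hba-a1, 9.03% that of Hba-a2, 6.65% that of Hbb-b1 and 16.0% that of Hbb-b2.

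The alpha probes were among the very brightest on both arrays, and the brightest other probes had differences in the same range. On the control array 31 of the 100 brightest spots were globin spots, and on the odor-enriched array also 31. Most of this count comes from the layout, since each of the 3 alpha probes is printed on 10 spots. The highest mean signal of any spot was 150141 and 287765, and no spot had a saturated pixel. The differences of the 50 brightest other probes centred on 1.13 (median), with quartiles at 1.01 and 1.24. This comparison was added with the values known. All 50 were above 0 and 38 at least 2-fold higher, while the median was 0.99 over the 100 brightest, 0.10 over the 500 brightest and -0.01 over the 1000 brightest. Among them were the 18S ribosomal RNA Rn18s (1.22) and the mitochondrially encoded COX2 (1.23), CYTB (0.97) and COX1 (0.96). Probes named for protein-coding genes among the 70 brightest varied widely. Apoe (0.17), Aldoc (-0.14), Cst3 (-0.17) and Ptgds (-0.25) were near 0, and Rplp1 (0.44), Ppia (0.49) and Actb (0.72) were higher. Probes named Furin (1.04), Elk1 (1.15), Ermn (1.26) and Cplx2 (1.72) were as high as alpha-globin or higher. Whether these last probes bound transcripts of the genes they are named for was not tested. The share of the bright end in the alpha-globin difference was not tested. Hbb-b1 and Alas2 were dimmer, with brightness ranks of 1055 and 2221 on the control array.

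**Figure D2:**
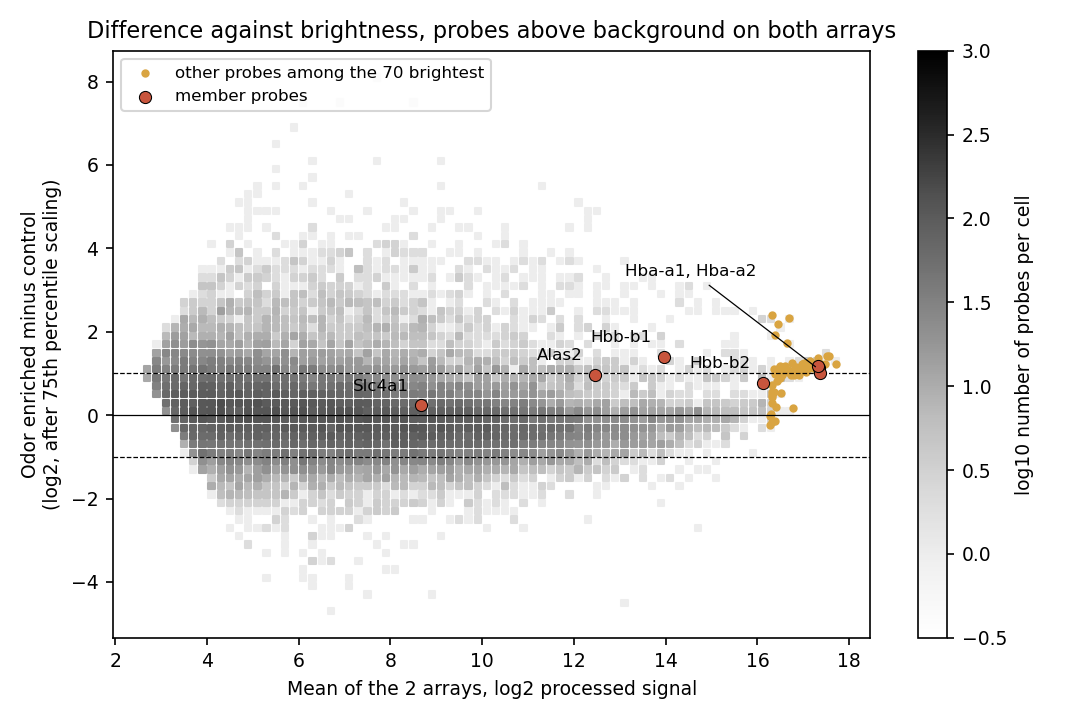
Difference between the arrays (vertical, log2 after 75th percentile scaling) against mean log2 processed signal (horizontal) for probes well above background on both, with the number of probes in grey. Member probes are red and the other probes among the 70 brightest yellow; the alpha-globin probes, at 1.01 to 1.17, lie among the brightest other probes, whose median over 50 probes was 1.13.

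The scaling decided the direction of alpha-globin. Quantile normalization, which gives both arrays the same distribution of signals, put Hba-a1 at -0.16, Hba-a2 at -0.0097 and Hbb-b2 at 0.26, while Hbb-b1 stayed at 1.38 and Alas2 at 1.09. Counted from the brightest, the alpha probes ranked 7, 3 and 9 on the control array and 9, 11 and 10 on the odor-enriched array. The part of these ranks in the quantile-normalized values was not tested. Rn18s, the brightest probe on both arrays, went from 1.22 to 0 by construction. Scaling on the E1A spike-in probes, which measure a foreign RNA added during labelling, put all 6 measured members below 0, from -0.36 for Hbb-b1 to -1.52 for Slc4a1. It lowered every difference by the same 1.76 log2 units and the median of all genes to -1.76. Under the other 11 settings that keep the 2-fold threshold, all 6 members stayed above 0. Hbb-b1 was highest of the 6 under each scaling. Slc4a1 was lowest except after quantile normalization, where at 0.30 it lay above the alpha genes and Hbb-b2.

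**Figure D3:**
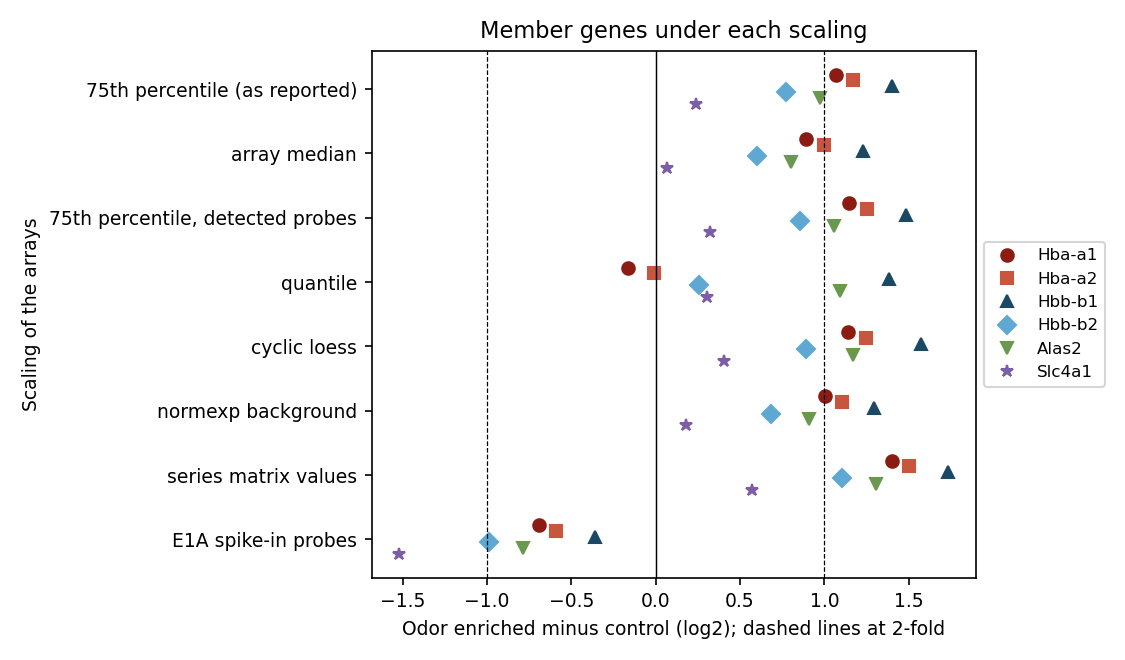
Difference (log2) of the 6 member genes measured on both arrays under 8 ways of scaling the arrays, with dashed lines at 2-fold. Hbb-b1 and Alas2 stay at 0.80 or above except with the E1A spike-in probes, whereas Hba-a1 and Hba-a2 go from 1.07 and 1.17 to -0.16 and -0.0097 with quantile normalization.

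The promoters of the globins and of Alas2 are shown because the adult globins and Alas2 were all higher with the 75th percentile scaling. Quantile normalization put alpha-globin below 0, while the dimmer Hbb-b1 and Alas2 stayed above it. The part of brightness in that contrast was not tested. Hbb-y is shown as the embryonic counterpart. RefSeq's table (GRCm38) held 4 of the 8 members, and Hbb-bs, Hbb-bt and Hba-x were added. The Hba-a1 and Hba-a2 windows, from 250 bases before to 50 after the start, were the same over 297 bases, moved by 3, so only Hba-a1 is shown. The 120 bases before the start read as follows, with the letters searched in capitals:
Hba-a1, plus strand, chr11:32283552-32283671: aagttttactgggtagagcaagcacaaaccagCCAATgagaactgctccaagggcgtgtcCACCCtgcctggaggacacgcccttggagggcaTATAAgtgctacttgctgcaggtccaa
Hbb-bs, minus strand, chr7:103827929-103828048: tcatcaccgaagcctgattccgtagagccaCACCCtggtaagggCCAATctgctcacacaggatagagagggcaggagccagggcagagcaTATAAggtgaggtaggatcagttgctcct
Hbb-bt, minus strand, chr7:103813924-103814043: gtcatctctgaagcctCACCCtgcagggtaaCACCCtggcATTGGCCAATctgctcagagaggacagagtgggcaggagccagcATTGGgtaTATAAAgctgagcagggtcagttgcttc
Hbb-y, minus strand, chr7:103853208-103853327: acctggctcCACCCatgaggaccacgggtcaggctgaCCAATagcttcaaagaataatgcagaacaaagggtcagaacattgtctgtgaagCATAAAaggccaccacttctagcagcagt
Alas2, plus strand, chrX:150547297-150547416: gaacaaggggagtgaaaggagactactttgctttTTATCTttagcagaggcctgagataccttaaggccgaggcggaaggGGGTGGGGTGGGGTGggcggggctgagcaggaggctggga
The letters searched on both strands were CACCC, known as the core of KLF1 sites, CCAAT, the GATA factor letters AGATAA or AGATAG or TGATAA or TGATAG, and the TATA box letters TATAAA or CATAAA or AATAAA. The shorter TATAA, which overlaps TATAAA, was added after the sequences were seen. In the full windows, CACCC or its complement occurred in 7 of these 7 promoters and in 57.5% of all 32851, the GATA letters in 6 of 7 and 29.8%, CCAAT in 5 of 7 and 37.4%, the first TATA letters in 4 of 7 and 35.1%, and TATAA in 6 of 7 and 24.9%. These 7 include both Hba-a1 and Hba-a2, whose windows are near copies. Of the sequences shown, only that of Alas2 holds GATA letters, at -86 counted from the start. The GATA letters lay further out in Hba-a1 (-183), Hba-a2 (-186), Hbb-bs (-210) and Hbb-y (-162), and Hbb-bt had none. The TATA matches of Alas2 also lay outside the bases shown, at -209 to -207. In the 120 bases before the start, Hbb-bs and Hbb-bt were identical at 88 of 119 ungapped positions (73.9%). Such matches describe the letters and do not show that a factor was bound.

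With the 75th percentile scaling, medians of the other erythroid lists lay below the 1.02 of the members. That order was lost after quantile normalization (members 0.28, red cell enzymes 0.29). E1A scaling lowers each value here and below by the same 1.76, so it kept the order, with the members at -0.74 and the transcription factors next at -1.55. The counts beyond 2-fold in these lists are to be read against 11.5% of all genes upwards and 5.52% downwards. Of 14 genes of haem synthesis and transport, all measured, 0 passed 2-fold in either direction and the median was 0.08. Alas1, the enzyme of the same first step outside the red cell lineage, stood at 0.38, Alad, of the next step, at 0.63 and Fech, which inserts the iron, at 0.54. The mitochondrial iron importer Slc25a37, much used by erythroid cells, was highest at 0.88, and the transporters Abcb10 (-0.71) and Slc25a38 (-0.67) were lowest. With the arrays centred on their medians, the list's median turned to -0.09.

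Red cell membrane and skeleton genes centred on 0.11 (median of 17 measured genes). None passed 2-fold upwards and 2 passed it downwards, the water channel Aqp1 (-1.81) and Sptb (-1.46), the beta-spectrin of the red cell skeleton, both also expressed in other cells. Epb4.1, which links spectrin to the membrane, was highest at 0.93, and Ermap, an erythroid membrane protein, stood at 0.73. Epb4.2 and Rhag were well above background only in the control, with no bound above 1. The list's sign was unsteady: its median was -0.07 with median centring, -0.04 after quantile normalization and -0.09 with each gene's brightest probe.

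Transcription factors of the erythroid lineage centred on 0.21 (12 genes), and 2 exceeded 2-fold. Gata1 and Klf1, which drive terminal red cell maturation, stood at 0.20 and -0.31. Klf1 ran from -0.77 to 0.15 over 2 probes, and was at 0.05 with normexp and 0.02 with the series matrix values. Both genes were dim, with scaled control levels of -2.79 and -3.19. Of the 12 genes, 8 were above 0, among them Zfpm1 (0.89, but -0.10 with its brightest probe), Tal1 (0.80) and Lmo2 (0.63). The 2 genes beyond 2-fold were Gata2 (1.68), a factor of blood progenitors, mast cells and endothelium, and the corepressor Cbfa2t3 (1.21). Cbfa2t3 stood at 0.55 with normexp and 0.78 with its brightest probe. A count of 2 of 12 is near the share over all genes. Ldb1, a cofactor found in many tissues, was lowest at -0.40. With median centring Gata1 stood at 0.03.

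Red cell enzymes and maturation genes centred on 0.18 (17 genes), with 2 beyond 2-fold upwards and 1 downwards, which are about the shares over all genes. Ahsp, the chaperone of free alpha-globin, stood at 0.61, close to the pooled SD between probes. The red cell carbonic anhydrase Car1 stood at -0.23 (0.10 with the series matrix values) and Car2, which glia also use, at -0.86. The higher genes were the glucose transporter Slc2a1 (1.14, and 0.96 with median centring), also abundant in brain vessels, and the exonuclease Isg20 (1.40), also an interferon-induced gene. Trim10 was the lower one at -1.02, and at -0.01 with normexp background correction.

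Genes of iron and erythropoietin supply centred on 0.15 (13 genes), or -0.02 with median centring. The iron exporter Slc40a1 (1.13) and the erythroid hormone gene Fam132b (2.30-fold) exceeded 2-fold, again near the share over all genes. Slc40a1 stood at 0.73 with normexp, 0.95 with median centring and 0.91 with its brightest probe, and Fam132b at 0.45 with normexp. The transferrin receptor Tfrc stood at 0.15 and the erythropoietin receptor Epor at 0.11 over probes from -0.28 to 0.49, and with median centring they were at -0.02 and -0.07. The iron-responsive regulator Ireb2 (-0.61) and the ferritin light chain Ftl1 (-0.26, or 0.08 with the series matrix values) were lowest. Epo and Hamp were well above background on neither array.

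Genes that clear haemoglobin and haem centred on -0.33 (9 genes), or 0.01 with the series matrix values, and 2 exceeded 2-fold. Hmox1, the inducible enzyme that opens the haem ring, was 4.16-fold higher (2.06 over probes at 1.31 and 2.81), though 0.99 with normexp. Cd163, the macrophage receptor for haptoglobin-bound haemoglobin, stood at 1.05, and at 0.71 with normexp. The haemoglobin-binding protein Hp (-0.82) and Lrp1 (-0.65), a receptor for haem-bound haemopexin, were lowest, and Hpx itself was above background only in the control. Hmox2, the constitutive form, stood at -0.42.

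Other globins centred on -0.01 (5 measured genes). Of these, Hbb-bt (1.10, and 0.07 after quantile normalization) and the theta-type Hbq1b (1.04, and 0.60 with normexp) exceeded 2-fold. Its near copy Hbq1a stood at -0.01, and both were dim. Globins used outside red cells were on the other side of 0, with cytoglobin, Cygb, at -0.52 and neuroglobin, Ngb, at -0.32, the latter 0.16 with normexp and 0.01 with the series matrix values. Myoglobin, Mb, was well above background on neither array.

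**Figure D4:**
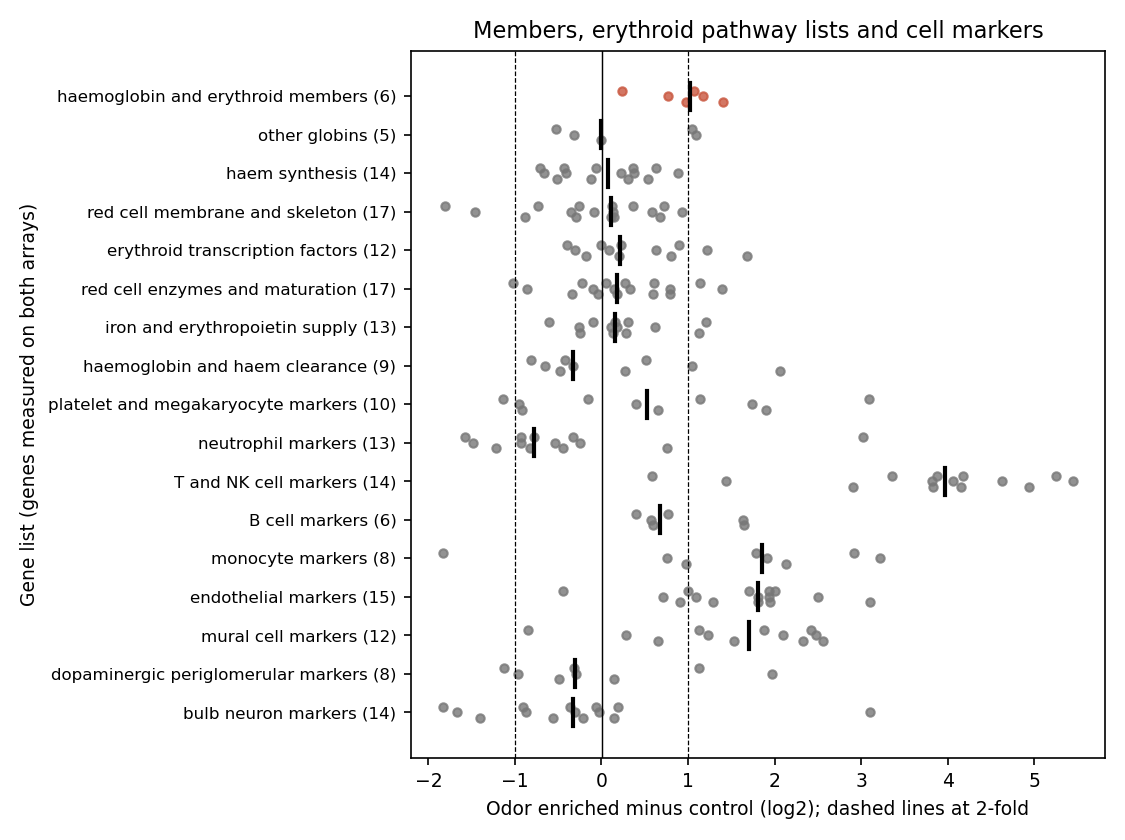
Differences (log2, horizontal) of the genes measured on both arrays in the member list (red) and in each pathway or cell marker list (grey), with the list's median as a black bar and its number of genes in brackets. The members' median of 1.02 exceeds the medians of the 7 erythroid pathway lists, from -0.33 to 0.21, and lies below those of the T and NK cell (3.97), monocyte (1.85), endothelial (1.80) and mural (1.70) markers.

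Markers of vessel cells and of some immune cells were also higher in the odor-enriched sample. Over all genes, 11.5% lay 2-fold or more higher and 5.52% lower. Endothelial markers centred on 1.80, and 11 of 15 exceeded 2-fold, from Emcn (3.10) and Egfl7 (2.50) down to Cldn5 (0.71) and Slc16a1 (-0.44). The log2 of their summed level was 6.09 on the control array and 7.77 on the other. Mural markers centred on 1.70 (9 of 12 beyond 2-fold, summed level 6.06 and 6.36), from Kcnj8 (2.56) and Myh11 (2.48) to Pdgfrb (0.29) and Vtn (-0.85). For T and NK cells the marker median was 3.97 (13 of 14, summed level 2.12 and 6.86), from Ccl5 (5.45) and Cd8b1 (5.25) to Cd3e (1.44) and Prf1 (0.58). For monocytes it was 1.85 (5 of 8 upwards and 1 downwards, summed level 5.67 and 7.35), from Plac8 (3.21) and Fcgr4 (2.92) to Lyz2 (0.75) and Chil3 (-1.83). For B cells it was 0.68 (2 of 6, summed level 0.82 and 1.80), from Ms4a1 and Ebf1 (1.64 each) to Cd79b (0.58) and Cd22 (0.40). After quantile normalization the endothelial median was 1.79 and that of T and NK cells 3.94. The members then ran from -0.16 for Hba-a1 to 1.38 for Hbb-b1, with a median of 0.28.

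Blood cells did not all go the same way. The neutrophil median was -0.78, with 3 of 13 beyond 2-fold downwards and 1 upwards, and a summed level of 7.89 and 7.79. The granule proteins Ltf (-1.57) and Mmp8 (-1.49) were lowest and Ly6g (3.03) and Csf3r (0.76) highest. Platelet markers were split, at a median of 0.53 and with 4 of 10 beyond 2-fold upwards against 1 downwards (summed level 2.65 and 3.08), from Ppbp (3.10) and Gp6 (1.90) to Itgb3 (-0.95) and Gp1bb (-1.14). With normexp Ppbp stood at 1.53, Gp6 at 0.57 and Gp1bb at -0.38. The part of blood or vessel content in the globin differences was not tested.

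The bulb's own neurons were present on both arrays, since each of their 14 markers was well above background on both. Their median was -0.33 (-0.0013 with the series matrix values), with 3 beyond 2-fold downwards and 1 upwards (summed level 5.75 and 5.05). The list ran from Doc2g (-1.84) and Slc17a7 (-1.67) to Tubb3 (0.19) and Tbx21 (3.11). Tbx21 was the 1 gene beyond 2-fold upwards, and bulk tissue does not show which cells its signal came from. Dopaminergic periglomerular markers, a class of bulb neurons, centred on -0.31 (0.01 with normexp and 0.03 with the series matrix values), with Th at -0.49, Ret at -0.96 and Slc6a3 at -1.13 (-0.31 with normexp), though Gch1 stood at 1.97 and Nr4a2 at 1.12, or 0.51 with its brightest probe (summed level 2.45 and 2.98). In 3901 transcripts, measured probes lay at least 500 bases apart. By median, the probe nearer the 3′ end read above the one nearer the 5′ end by 2.59 log2 units (control) and 2.35 (odor-enriched). Taken as odor-enriched less control, this gap had a median of -0.25 (quartiles -0.74 and 0.21). The Hba-a1 probes stood at 1.01 from base 161 and at 1.12 from base 499. The part of probe position in these values, and in the 1.40 of Hbb-b1, whose probe is at the 5′ end, was not tested.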

How the data were processed

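Per the labels, bulb RNA of each mouse was primed with oligo-dT, amplified into Cy3-carrying cRNA and put on 1 Agilent array. Per the file headers, Agilent Feature Extraction 11.5.1.1 produced the authors' spot intensities. The deposited processed signal is an intensity from which background and spatial trend were removed, with no scaling across arrays. Log2 values in the deposited series matrix equal the log2 processed signal minus a constant per array, whose origin is not given in the sources used here. Matrix medians were -9.48 (control) and -8.98.

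Outlier-flagged spots (122 and 183) were left out, log2 processed signals were averaged per probe, and the array's 75th percentile (7.97 and 7.66) was subtracted. A probe counted as well above background if the majority of its spots had that flag, which was set for 73.7% and 67.6% of spots, over a median local background of 17 and 22. Probes that passed on both arrays were averaged by gene name. Genes above background on 1 array got a bound from the lowest such level on the other (-5.69 in the control). The pooled SD was 0.05 between repeat spots of 300 probes.

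The members and lists were chosen with earlier results of these data known. Named genes were all members, the 2 highest and 2 lowest of each list and a few fixed erythroid genes, some of which are not reported here. Genes named among the brightest probes, Hba-x, Hbb-bh2, Epo, Hamp, Mb, Hbq1a, Hmox2, Th, Zfpm1, Tal1 and Lmo2 were chosen after their values were seen. Python 3.11.15, numpy 2.4.6, pandas 2.3.3, matplotlib 3.10.9, R 4.3.3 and limma 3.58.1 were used, and the gene summary was tested on simulated data.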

Additional observations from a re-analysis of the deposited data

How the results depend on the processing

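No paired analysis was possible because each group holds 1 array, and for the same reason no array could be left out. The alternatives were 9 other normalizations, background corrections or spot filters, 4 other rules for combining probes, and thresholds of 1.5-fold and 3-fold. The cause of the changes below was not tested, except that E1A scaling, from 8 spike-in probes, subtracts 1.76 from every difference by construction. The count of members at least 2-fold higher, 3 of 6, was 1 with median centring, 5 with the series matrix values, 0 with E1A scaling, 5 at 1.5-fold (21.2% of all genes) and 0 at 3-fold (5.39%). The count at least 2-fold lower, 0, was 1 with E1A scaling. The members' median of 1.02 was 0.28 after quantile normalization, turned to -0.74 with E1A scaling and lay from 0.85 to 1.35 under the other 11 settings. The median of all genes moved to -0.17 with median centring, 0.33 with the series matrix values and 0.21 with no filter. Of all genes, 2747 lay 2-fold higher and 1317 lower (67.6% of calls higher). These were 2136 and 2061 with median centring (50.9%), 4466 and 582 with the series matrix values (88.5%), 376 and 19961 with E1A scaling (1.85%), 1256 and 622 with normexp, 3231 and 2380 with probes above background on either array, and 9379 and 2294 with no filter.

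Quantile normalization turned the Hba-a1 probes to -0.059 and -0.27, their mean to -0.16 and Hba-a2 to -0.0097. E1A scaling turned the Hba-a1 probes to -0.64 and -0.75, Hba-a1 to -0.69, Hba-a2 to -0.59 and Hbb-b1 to -0.36. With E1A scaling the list medians were -1.77 for other globins, -1.68 for haem synthesis, -1.65 for membrane and skeleton, -1.55 for transcription factors, -1.58 for enzymes and maturation, -1.61 for iron supply, -2.09 for haem clearance, -1.23 for platelets, -2.54 for neutrophils, 2.21 for T and NK cells, -1.08 for B cells, 0.090 for monocytes, 0.044 for endothelium, -0.055 for mural cells (reversed), -2.07 for dopaminergic cells and -2.09 for bulb neurons. With normexp the T and NK median was 2.54, and with no filter the other globins stood at 1.06. Dim probes near background, such as those of Hbb-y and Hbq1b, and single spots limit precision.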
